A study of Rattus norvegicus with 9 samples.

Results

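Finerenone-treated DOCA kidney was compared with untreated DOCA kidney by snATAC-Seq, which reads the open chromatin of single barcoded nuclei with a transposase. The comparison used every nucleus whose treatment entry was Finerenone or DOCA, 19563 of 53298 nuclei from 4 of 9 libraries. All were whole kidneys of male Sprague-Dawley rats, with 6 weeks in the age field of the labels. The paper describes surgery and weeks of treatment before sacrifice, so whether this entry gives the age of the rats is not clear. DOCA rats had the left kidney removed, received deoxycorticosterone acetate subcutaneously every week (50 mg/kg), drank salt water and were gavaged with vehicle. Finerenone rats had the same surgery, hormone and salt and were gavaged with finerenone (10 mg/kg/day). Control rats had sham surgery, sesame oil without DOCA and tap water, so they differ from both groups in more than a drug. The fits also held other DOCA rats (50 mg/kg) on salt water. Some were treated with the steroidal receptor antagonist spironolactone (50 mg/kg/day), whose libraries add to the spread. Others received amiloride (20 mg/kg/day), a blocker of the epithelial sodium channel, whose single library adds none. The paper's methods name removal of a kidney for the spironolactone group but not for the amiloride group. Each group had 2 libraries, 1 from a chromatin-only kit (scATAC) and 1 from a joint chromatin and RNA kit (Multiome), except Amiloride, which had the latter alone. The number of rats behind a library and the time on treatment are not given for single libraries.

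DOCA is a mineralocorticoid. Together with salt and the loss of a kidney it raises blood pressure and leads to tubular injury, inflammation and scarring of the remaining kidney. Finerenone is a nonsteroidal antagonist of the mineralocorticoid receptor, a nuclear receptor that responds to aldosterone. In the kidney the receptor is best known in the distal convoluted tubule and in principal cells of the collecting duct, where it controls sodium uptake, and it is also present in stromal, vascular and myeloid cells.

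The DOCA libraries held 2471 (scATAC) and 9143 nuclei (Multiome), and the Finerenone libraries held 1817 and 6132 nuclei. The DOCA and Finerenone libraries shared 6 barcodes within the scATAC kit and 91 within the Multiome kit, and these were counted as separate nuclei because each barcode was read within its own library. The codes of both DOCA libraries share a stem, as do those of both Spironolactone libraries, which add to the spread in every limma p value, and the sources do not say whether 1 kidney gave both libraries of such a pair. The Control Multiome and the Amiloride codes share a stem as well, although their treatments differ. The p values below therefore measure the spread between libraries, which may be partly technical. The authors' 12 cell type labels were used as given, since accessibility at marker genes was not analysed here. On the deposited map, 90.8% of the nearest neighbours of a nucleus carried its own label.

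The map of the 4 libraries shows a contrast between the kits that many, but not all, of the results share. The shares of myofibroblasts, fibroblasts and podocytes, given below, changed by similar amounts in both kits. The Finerenone scATAC library nearly overlaid the DOCA scATAC library in position, though not in the share of every label. The Finerenone Multiome library had fewer nuclei where injured tubule and macrophages lie and more in the lower left of the proximal straight tubule.

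**Figure D1:**
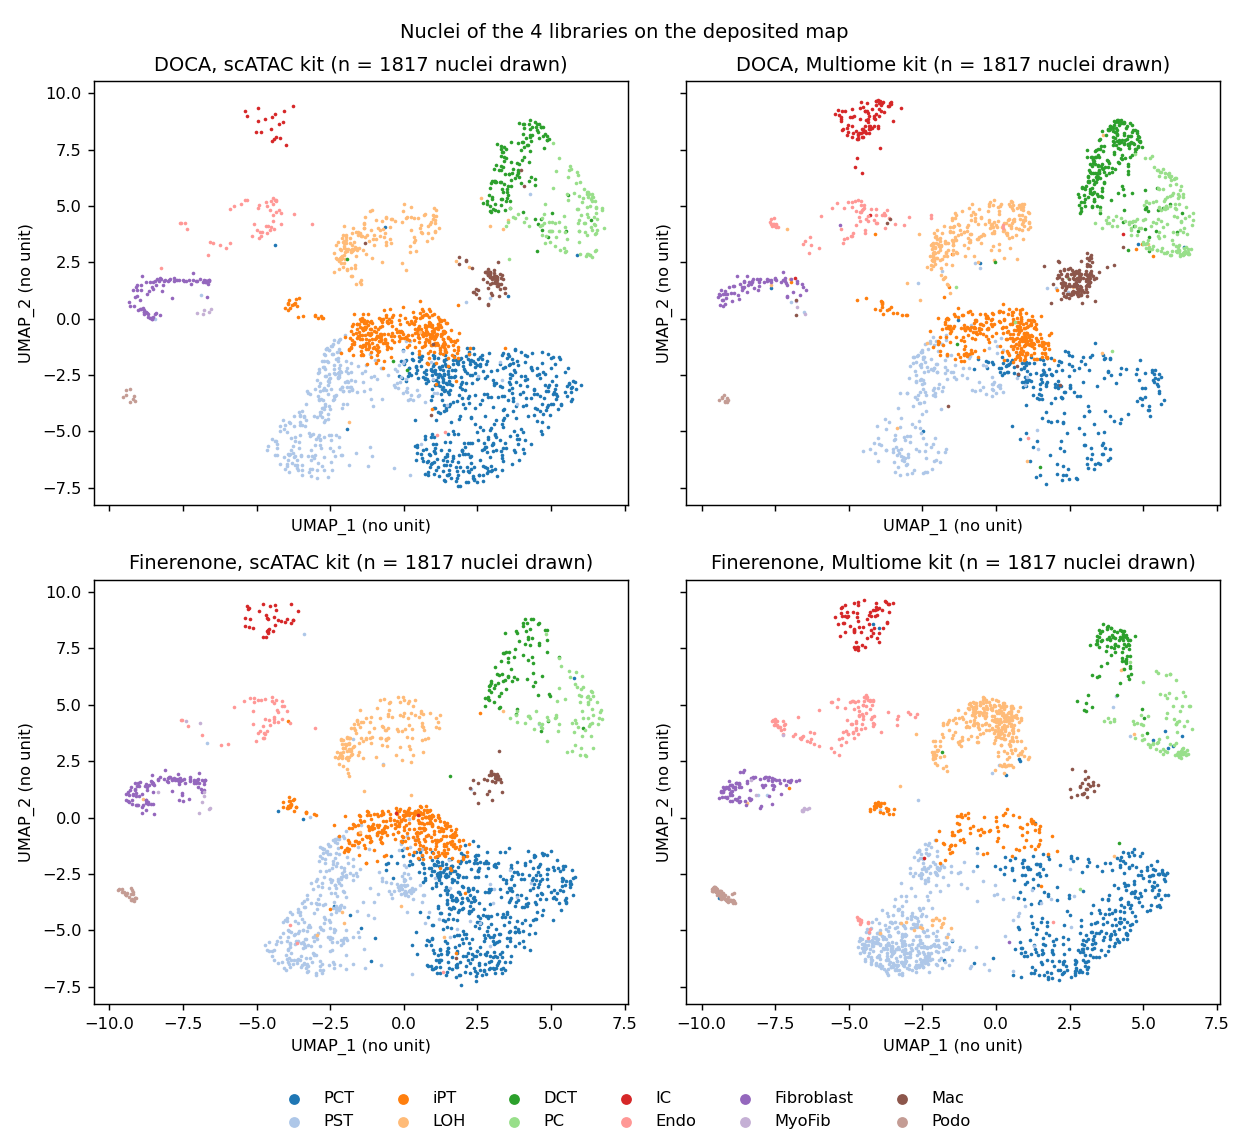
UMAP coordinates (no unit) of 1817 nuclei drawn at random from each library, the size of the smallest, with DOCA above, Finerenone below, the scATAC kit on the left and the Multiome kit on the right; colours give the cell type label. The injured proximal tubule (orange) is dense in 3 panels and sparse in the Finerenone Multiome panel, where podocytes (left edge) and loop of Henle nuclei are more numerous than in the DOCA Multiome panel.

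Shares were taken within compartments, because the share of proximal tubule nuclei alone differed between kits in both groups. Proximal tubule nuclei were 64.5% (scATAC) and 43.8% (Multiome) of all DOCA nuclei and 68.2% and 53.0% of all Finerenone nuclei. Distal nephron nuclei were 23.0% and 38.6% in DOCA and 19.6% and 31.2% in Finerenone, and stromal and immune nuclei were 12.2% and 17.0% against 10.9% and 13.1%. The change from DOCA to Finerenone in log2 odds, the log2 of a share over its remainder, was 0.39 for the proximal tubule, -0.38 for the distal nephron and -0.31 for the stroma (same direction in both kits for all 4 compartments with podocytes, 100%; SE 0.46 each, limma with group and kit as terms, Benjamini-Hochberg adjusted p = 0.513 each). Within compartments, 1 of 11 labels (9.09%) passed an adjusted p of 0.05, 4 of 11 (36.4%) had an unadjusted limma p below 0.05, and 10 of 11 (90.9%) had the same direction in both kits. The pairs of libraries did not overlap between the groups in 7 of 11 labels (63.6%), with Finerenone above in 3 (27.3%) and below in 4 (36.4%). Labels of a compartment sum to its total, so they are not independent of each other.

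In the proximal tubule, the label of injured proximal tubule (iPT) took a smaller share and that of the proximal straight tubule (PST) a larger share in Finerenone, far more so in the Multiome pair. The iPT label took 30.9% of proximal tubule nuclei in DOCA scATAC and 43.5% in DOCA Multiome. It took 27.5% in Finerenone scATAC and 13.4% in Finerenone Multiome, against 2.86% and 19.7% in Control. Both Finerenone libraries lay below both DOCA libraries, the scATAC library by little. The mean was 37.2% ± 8.95 (SD, n = 2) in DOCA and 20.4% ± 10.0 (SD, n = 2) in Finerenone, and the change in log2 odds of -1.28 (SE 0.96) did not pass the test (limma adjusted p = 0.260). Within the kits it was -0.23 and -2.32.

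PST, the final and straight part of the proximal tubule, took 24.6% in both DOCA libraries. In Finerenone it took 29.6% of the scATAC and 47.1% of the Multiome proximal tubule nuclei, against 42.2% and 42.6% in Control. The DOCA libraries were alike, and the Multiome Finerenone library alone exceeded Control. The log2 change was 0.91 (SE 0.36, limma adjusted p = 0.107), with 0.37 and 1.45 in the kits. The proximal convoluted tubule (PCT), where most of the filtrate is taken up, was the only label of 11 whose direction differed between kits. It took 44.5% and 31.9% in DOCA and 42.9% and 39.5% in Finerenone, against 54.9% and 37.7% in Control. Its log2 change was 0.19 (SE 0.31, limma adjusted p = 0.559). In scATAC the Finerenone share lay further from Control than the DOCA share did, and in Multiome it lay nearer. The number of iPT nuclei per PST nucleus was 1.26 (scATAC) and 1.77 (Multiome) in DOCA, 0.929 and 0.284 in Finerenone, against 0.0677 and 0.463 in Control. The Finerenone Multiome ratio was thus lower than that of the Control Multiome library, while the Finerenone scATAC ratio stayed nearer to DOCA than to Control.

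In the distal nephron, the loop of Henle (LOH) took a larger share in both Finerenone libraries than in either DOCA library, and the distal convoluted tubule (DCT) and principal cells (PC) took smaller ones. None of the 4 labels passed the test. LOH, the segment that concentrates urine, took 37.7% (scATAC) and 33.1% (Multiome) of distal nuclei in DOCA, 44.3% and 56.3% in Finerenone, against 39.3% and 39.4% in Control. Its log2 change was 0.89 (SE 0.36, limma adjusted p = 0.107), with 0.39 and 1.38 in the kits. The Finerenone values lay above those of Control as well as above those of DOCA.

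The DCT label, the segment that takes up sodium through the thiazide-sensitive transporter, took 29.9% and 29.5% in DOCA and 23.8% and 13.9% in Finerenone, against 19.8% and 21.9% in Control. The log2 change was -0.91 (SE 0.36, limma adjusted p = 0.107), with -0.45 and -1.36 in the kits. PC, which carry the epithelial sodium channel, took 26.8% and 24.5% in DOCA and 21.6% and 15.2% in Finerenone, against 17.9% and 15.6% in Control. Their log2 change was -0.63 (SE 0.26, limma adjusted p = 0.107), with -0.41 and -0.85 in the kits. PC lay nearer to Control in the Finerenone than in the DOCA library of either kit, and DCT did so in the scATAC kit, whereas in the Multiome kit the Finerenone share of DCT lay below that of Control. The DCT and PC labels moved in near parallel in the scATAC pair, with 170 DCT and 152 PC nuclei in DOCA and 85 DCT and 77 PC nuclei in Finerenone. In the Multiome pair there were 1.20 DCT nuclei per PC nucleus in DOCA and 0.918 in Finerenone.

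Intercalated cells (IC), which handle acid and base, took 5.63% (32 nuclei) and 13.0% (459 nuclei) of distal nuclei in DOCA. They took 10.4% (37 nuclei) and 14.5% (278 nuclei) in Finerenone and 23.0% and 23.1% in Control. The Finerenone and DOCA libraries overlapped, and the log2 change was 0.57 (SE 0.40, limma adjusted p = 0.254), which became 0.01 with DOCA scATAC left out and 1.12 with DOCA Multiome left out. IC was the only distal label with the larger change in the scATAC pair (0.95 against 0.18). There were 4.75 (scATAC) and 1.88 (Multiome) PC nuclei per IC nucleus in DOCA, 2.08 and 1.05 in Finerenone, against 0.780 and 0.676 in Control. Within either kit the Finerenone ratio lay between those of DOCA and Control.

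Among stromal and immune nuclei, macrophages (Mac) were the label with the largest difference and myofibroblasts (MyoFib) the only label past the threshold. Mac took 33.9% (102 nuclei) of these nuclei in DOCA scATAC and 44.5% (693 nuclei) in DOCA Multiome. They took 18.7% (37 nuclei) in Finerenone scATAC and 8.22% (66 nuclei) in Finerenone Multiome, against 11.4% and 4.34% in Control. Both Finerenone libraries lay below both DOCA libraries, and each lay above the Control library of its own kit. The log2 change was -2.15 (SE 0.77), with -1.15 and -3.16 in the kits, at an unadjusted p of 0.0337 and an adjusted p of 0.107 in limma. As a share of all nuclei Mac were 5.85% ± 2.44 (SD, n = 2) in DOCA and 1.56% ± 0.679 (SD, n = 2) in Finerenone, and on that scale the log2 change of -1.97 passed the test (limma adjusted p = 0.0194). There were 1.48 and 1.60 Mac nuclei per endothelial nucleus in DOCA and 0.771 and 0.157 in Finerenone.

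MyoFib nuclei, the authors' myofibroblast label for which the paper names Synpo2 as a marker, were few. No marker was examined here, so they are not taken to be scar-forming cells. They were 5 nuclei (1.66%) in DOCA scATAC, 26 (1.67%) in DOCA Multiome, 9 (4.55%) in Finerenone scATAC and 33 (4.11%) in Finerenone Multiome, against 4.79% and 4.34% in Control. Of the 9 Finerenone scATAC nuclei, 6 had fewer than 8 nuclei of their own label among the 15 nearest on the map, and only 37.0% of the neighbours of these 9 nuclei were MyoFib, with 29.6% fibroblasts and 20.0% Endo. In the DOCA scATAC library 98.7% of neighbours of MyoFib nuclei were MyoFib, in the Multiome libraries 69.7% (DOCA) and 81.4% (Finerenone), and over all libraries 80.1%. The share rose by 1.38 in log2 odds in Finerenone (SE 0.26, limma adjusted p = 0.0234), in 2 of 2 kits (1.43 and 1.33). The SE of the model was smaller than the SE that counting alone gives to this change, 0.436, which was so for no other of the 11 labels. With libraries weighted by their counting error the log2 change was 1.36 and the adjusted p 0.0687 in limma, and the call was lost without either DOCA library or without the Finerenone Multiome library. As a share of all nuclei, the scale on which Mac passed, the log2 change of MyoFib was 1.08 and did not pass (limma adjusted p = 0.301). The fibroblast label, from which matrix is laid down in the interstitium, took 41.5% and 26.0% in DOCA and 52.5% and 35.4% in Finerenone, against 35.9% and 34.8% in Control. Its log2 change was 0.64 in each kit (SE 0.34, limma adjusted p = 0.171). In scATAC the Finerenone share lay further from Control than the DOCA share did, and in Multiome it lay nearer. There were 0.0400 and 0.0644 MyoFib nuclei per fibroblast nucleus in DOCA, 0.0865 and 0.116 in Finerenone, against 0.133 and 0.124 in Control.

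Endothelium (Endo), the lining of the vessels, took 22.9% and 27.8% of stromal and immune nuclei in DOCA. It took 24.2% in Finerenone scATAC and 52.3% in Finerenone Multiome, against 47.9% and 56.5% in Control. The scATAC pair differed little and the Multiome Finerenone library lay near the Multiome Control library. The log2 change was 0.81 (SE 0.49, limma adjusted p = 0.209). As a share of all nuclei Endo were 2.79% and 4.74% in DOCA and 2.64% and 6.85% in Finerenone, so the kits went opposite ways. Fibroblast nuclei per Endo nucleus were 1.81 and 0.933 in DOCA and 2.17 and 0.676 in Finerenone, again in opposite directions.

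Podocytes (Podo), the filtering epithelium of the glomerulus, were taken as a compartment of their own among all nuclei and were the only 1 of 4 compartments (25%) past the threshold. In DOCA they were 0.364% (9 nuclei) and 0.634% (58 nuclei) of all nuclei, and in Finerenone 1.27% (23 nuclei) and 2.64% (162 nuclei), against 1.55% and 2.96% in Control. Both Finerenone libraries lay above both DOCA libraries. The share rose by 1.92 in log2 odds (SE 0.46, limma adjusted p = 0.00546), in 2 of 2 kits (1.76 and 2.08). Per endothelial nucleus there were 0.130 and 0.134 podocytes in DOCA, 0.479 and 0.386 in Finerenone, against 0.475 and 0.374 in Control. The call was lost without either DOCA library (adjusted p = 0.116 without scATAC and 0.0951 without Multiome), without the Finerenone Multiome library (0.130), without the kit term (0.102) and on an arcsine scale (0.322), all in limma.

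**Figure D2:**
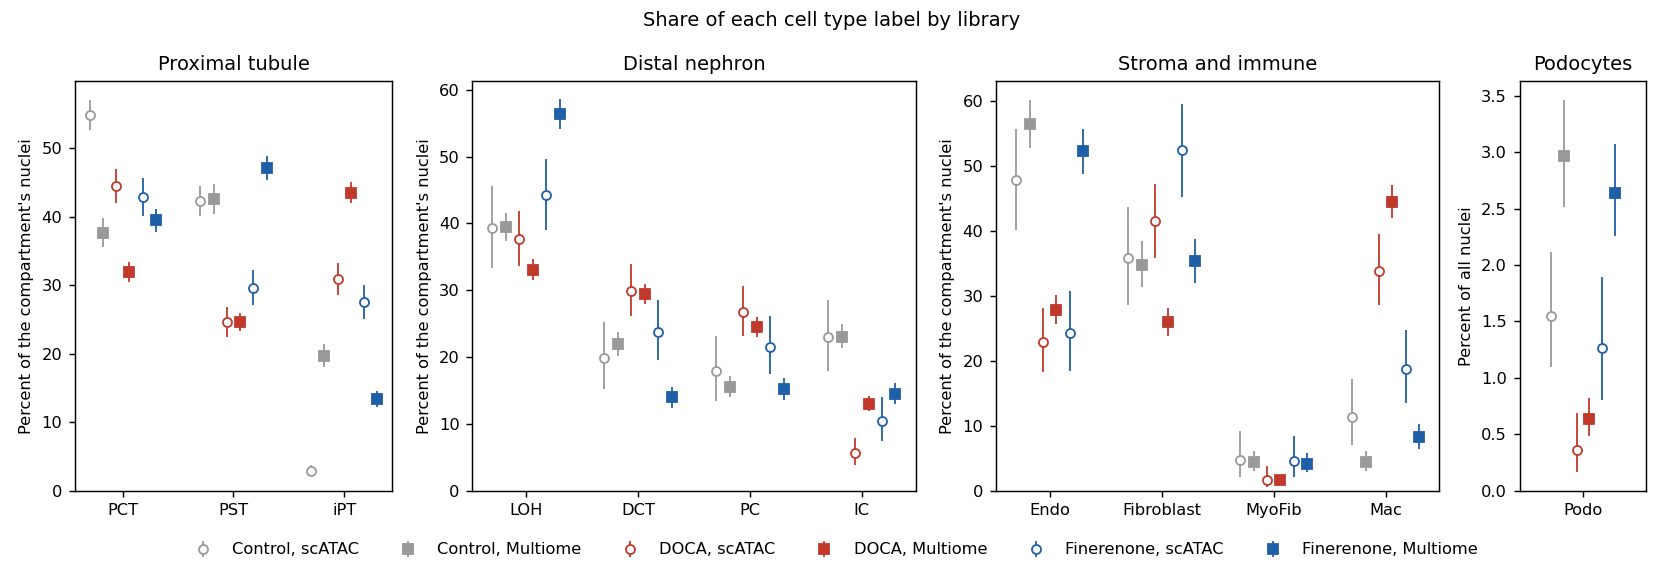
Share of each cell type label (percent of the nuclei of its compartment, and for podocytes percent of all nuclei) in the Control, DOCA and Finerenone libraries; open circles are the scATAC kit, filled squares the Multiome kit, and bars are exact 95% intervals that cover counting error only. The filled blue squares leave the red ones by more than the open circles do for PST, iPT, LOH, DCT, Endo and Mac, whereas the MyoFib shares differ by a similar amount in both kits.

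The size of the change differed between the 2 pairs of libraries. The log2 change was larger in the Multiome pair for 9 of 11 labels. The difference in change, Multiome minus scATAC, was -2.08 for iPT (95% interval -2.38 to -1.79, counting error only), -2.01 for Mac (-2.74 to -1.28), 1.40 for Endo (0.74 to 2.06) and 1.08 for PST (0.80 to 1.36). For PC it was -0.45 (-0.94 to 0.05), for fibroblasts 0.00 (-0.58 to 0.59) and for MyoFib -0.11 (-1.81 to 1.60). For podocytes among all nuclei it was 0.32 (-0.86 to 1.49). These intervals hold no spread between animals and are no test of a difference between kits. With 1 library for each group and kit, a difference between kits and a difference between rats cannot be told apart. An exact permutation of the group names within kits has 4 assignments and cannot give a two-sided p below 0.5, so no such test was run.

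The position of the nuclei of a label on the map was compared next, to ask whether Finerenone nuclei of the same label lay elsewhere than DOCA nuclei. The displacement is the distance between the median positions of 2 libraries, divided by the spread (SD) of the label. The map was computed after batch correction over all libraries, so distances have no physical unit and differences between libraries may be understated. None of the 24 coordinates (12 labels, UMAP_1 and UMAP_2) differed between Finerenone and DOCA past the threshold (0%, limma with Benjamini-Hochberg adjustment). Libraries with fewer than 10 nuclei were dropped, which for MyoFib were both scATAC libraries of the comparison and for podocytes the DOCA scATAC library. The MyoFib coordinates then had no residual degrees of freedom of their own and are no test of that label. At an unadjusted p below 0.05 there were 2 of 24 (8.33%). These were UMAP_2 of fibroblasts (-0.20 SD, SE 0.06) and UMAP_2 of PCT (-0.39 SD, SE 0.12), each with an adjusted p of 0.332 in limma.

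In the Multiome pair, PST nuclei were displaced by 1.27 SD, LOH by 0.82, PCT by 0.77, iPT by 0.58, and DCT by 0.39. In the scATAC pair the same labels were displaced by 0.10, 0.21, 0.19, 0.23 and 0.11 SD. The DOCA libraries of the 2 kits lay 0.36 SD apart in PST, 0.26 in LOH, 0.24 in PCT, 0.22 in iPT and 0.31 in DCT, so the scATAC displacement of PST, LOH, PCT and DCT was shorter than the step between kits within DOCA. Over the 10 labels with at least 10 nuclei in each of the 4 libraries, the median displacement was 0.148 SD in the scATAC pair and 0.385 SD in the Multiome pair. The Multiome displacement was longer than both steps between kits, that within DOCA and that within Finerenone, for 5 of 10 labels (PCT, PST, iPT, fibroblasts and Mac), and the scATAC displacement for 0 of 10. Endo nuclei were displaced by 0.04 and 0.07 SD, the least of the 10 labels in scATAC, although their share in the Multiome pair was 27.8% against 52.3%. The direction of the displacement was close to the same in both kits (cosine over 0.9) for 4 of 10 labels, among them PCT and LOH (cosine 1.00 each) and Mac (0.95), and was opposed for others such as PC (-0.94) and DCT (-0.86). Over these 10 labels, 13 of 20 coordinates (65%) had the same sign in both kits.

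Mixing gives a similar picture without medians. It is the share of the 15 nearest nuclei of the same label that come from the other library, over the share that the sizes of both libraries give, so that 1 means fully mixed. The 15 neighbours span a larger part of the smaller scATAC sets, such as 32 and 37 IC nuclei, than of the Multiome sets. The kits are therefore not compared like for like. The Finerenone and DOCA scATAC libraries had a median mixing of 1.00 over 10 labels, from 0.879 in fibroblasts to 1.03 in PC. The Multiome pair had a median of 0.873 over 12 labels, from 0.723 in LOH and 0.756 in PST to 0.970 in PC. The DOCA libraries of both kits mixed at 0.968, and the Finerenone libraries of both kits at 0.929. Control and DOCA mixed at 0.902 (scATAC) and 0.793 (Multiome), and Control and Finerenone at 0.939 and 0.900, medians over label sets that differ in part. Single labels went the other way, such as podocytes in the Multiome kit, which mixed with Control at 0.575 in Finerenone and 0.784 in DOCA. The median over labels, averaged over both kits, was 0.937 and ranged from 0.916 to 0.960 under 4 other ways of choosing neighbours or library sizes.

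**Figure D3:**
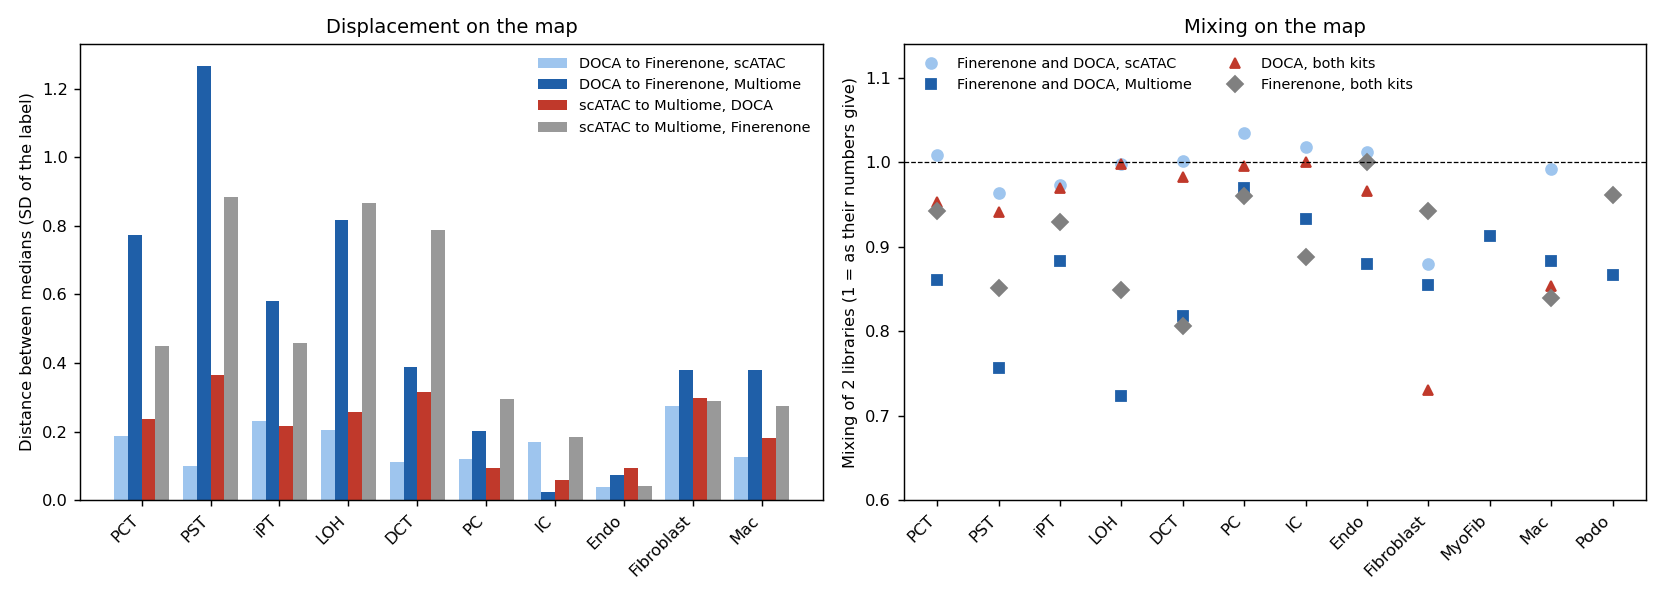
Left, distance between the median positions of 2 libraries on the map in SD of the label, for the 10 labels with at least 10 nuclei in each library; right, mixing of 2 libraries among the 15 nearest nuclei of a label, where the dashed line at 1 means fully mixed and the axis starts at 0.6. The Multiome displacement (dark blue) reaches 1.27 SD in PST, and the scATAC displacement (light blue) stays at or below 0.28 SD.

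The proximal tubule was read along the line from the centre of PST (position 0) to the centre of iPT (position 1), both set from all 9 libraries. The median PST nucleus lay at 0.194 (scATAC) and 0.387 (Multiome) in DOCA, at 0.192 and -0.193 in Finerenone, and at -0.181 and -0.170 in Control. The Finerenone scATAC library therefore equalled DOCA scATAC, and the Finerenone Multiome library lay at the Control position, beyond the centre of PST. The median PCT nucleus lay at 0.716 and 0.753 in DOCA, 0.668 and 0.653 in Finerenone, against 0.448 and 0.499 in Control. Here both Finerenone libraries lay below both DOCA libraries and above both Control libraries. Nuclei that kept the iPT label lay at 0.985 and 1.01 in DOCA and at 1.01 and 0.954 in Finerenone, so that the kits went opposite ways and their mean difference was -0.01 (-0.05 to 0.03 with single libraries left out). The line ends at the centre of the iPT label itself, so a position near 1 is largely set by the label, whereas on the map as a whole iPT was displaced by 0.58 SD in the Multiome pair.

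The labels of neighbouring nuclei were counted as well, with neighbours taken from the whole map of all 9 libraries. Of the 15 nearest neighbours of PST nuclei, 3.38% (scATAC) and 6.92% (Multiome) were labelled iPT in DOCA, and 4.11% and 1.15% in Finerenone. For PCT nuclei these shares were 3.23% and 4.75% in DOCA and 3.24% and 1.96% in Finerenone. Only the Multiome pair showed fewer iPT neighbours in Finerenone.

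Some areas of the map held a label in different proportion. Their limits were read from the map after it was seen, and the values are given as a description with no test. Of PCT nuclei, 43.2% (scATAC) and 53.4% (Multiome) in DOCA lay in the area beside iPT (UMAP_2 over -3), with 36.9% and 33.2% in Finerenone and 23.0% and 21.9% in Control. Of PST nuclei, 46.4% and 61.4% in DOCA lay beside iPT (UMAP_2 over -3.5), with 45.2% and 20.7% in Finerenone and 17.2% and 13.2% in Control. For both labels the Finerenone value lay further below DOCA in the Multiome pair than in the scATAC pair.

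A separate group of iPT nuclei at the far left (UMAP_1 under -3) held 5.49% and 5.17% of iPT nuclei in DOCA, 7.04% and 21.4% in Finerenone, against 26.3% and 54.2% in Control. In number this group was similar, with 27 of 492 and 90 of 1742 iPT nuclei in DOCA and 24 of 341 and 93 of 435 in Finerenone. The left arm of LOH (UMAP_1 under -1.5) held 43.0% and 34.5% of LOH nuclei in DOCA, 37.3% and 10.9% in Finerenone, against 10.9% and 9.07% in Control. The lower area of DCT (UMAP_2 under 6.5) held 48.8% and 39.2% of DCT nuclei in DOCA, 51.8% and 19.9% in Finerenone, against 33.3% and 20.0% in Control. In these 3 areas the Finerenone Multiome library lay nearer to its Control than to its DOCA partner for LOH and DCT, but not for iPT, while the Finerenone scATAC library lay near DOCA.

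**Figure D4:**
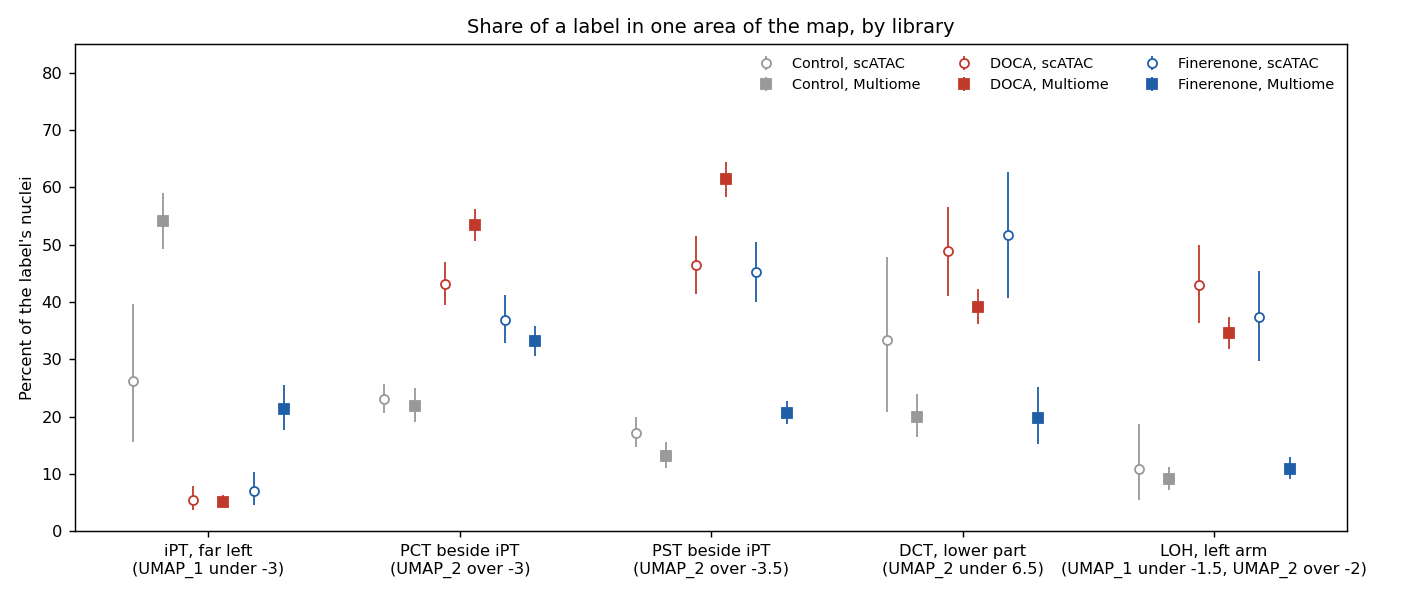
Percent of the nuclei of a label that lie in an area of the map, by library; open circles are the scATAC kit, filled squares the Multiome kit, and bars are exact 95% intervals that cover counting error only. In each of the 5 areas the open blue circle lies nearer to the open red circle than the filled blue square does to the filled red one, and the filled blue squares lie between the filled red and grey squares or at the grey ones.

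Cut into squares of 1 UMAP unit with at least 40 nuclei, the map gave 120 squares, of which 41 held a larger share of their compartment in Finerenone in both kits, 41 a smaller share in both kits, and 38 differed in sign between kits. Squares held mainly by Mac were lower in both kits in 4 of 5 and higher in 0, and those held mainly by PC were lower in 8 of 12 and higher in 0. Squares held mainly by iPT were lower in 7 of 13 and higher in 2, and those of Endo were higher in 5 of 7 and lower in 1. PST squares were mixed, with 9 of 19 higher and 5 lower in both kits, as were LOH squares, with 6 of 13 higher and 4 lower. These counts follow the shares above, since the same nuclei enter both, and show where within a label the difference lay.

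**Figure D5:**
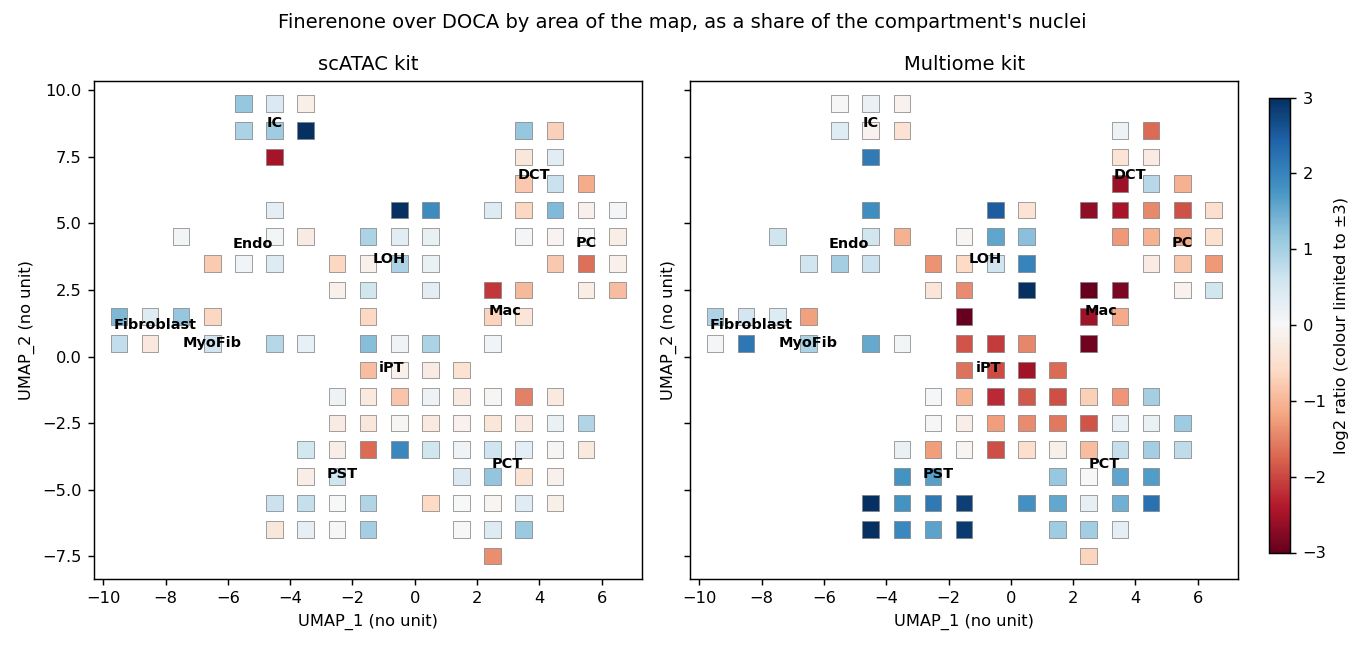
The log2 ratio of Finerenone to DOCA in each square of 1 UMAP unit (axes, no unit), as a share of the nuclei of its compartment, in the scATAC kit (left) and the Multiome kit (right), with labels at the mean position of their squares and podocytes not drawn; blue is higher in Finerenone, red is lower, and the colour stops at ±3. In the Multiome kit all Mac squares and all but 2 iPT squares, those at the far left, are red and the lower left PST squares are blue, and in the scATAC kit most squares are pale.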

How the data were processed

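Nuclei were isolated from whole kidneys, and the authors aligned reads with Cell Ranger ATAC 1.1.0 to the rat build rn6, merged and filtered nuclei in Signac 1.3.0, removed batch differences by Harmony, ran Louvain clustering and named the clusters. The number of merged data sets in the supplementary methods differs from the 9 libraries given here. The deposited files list each nucleus with its library code, treatment and cell type label (names, not measurements), and UMAP coordinates, a score without a unit that the authors computed after batch correction. Peaks, gene activity and quality measures were not analysed here, no further filter was applied and no doublet caller was run.

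Treatment came from the metadata. The kit of a library came from barcodes it shared with others (over 20 within the Multiome kit, at most 13 within scATAC and at most 1 across kits), and the lone Amiloride library, labelled Multiome, fixed which set was which. Kit numbers pair the libraries. The correlation of deviations from the group means between DOCA and Finerenone was 0.10 over 11 labels, and the pairing rests on the kit named in the labels.

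Log2 odds (count + 0.5) within compartments, and median coordinates over at least 10 nuclei in SD of the label, were fitted by limma 3.58.1 (R 4.3.3) across the 9 libraries on terms for group and kit, so the spread is shared with Control and Spironolactone (2 libraries each), while the 1 Amiloride library adds none. Benjamini-Hochberg adjustment ran over 11 labels, 4 compartments or 24 coordinates, and the threshold was 0.05. Compartments were PCT, PST and iPT, then LOH, DCT, PC and IC, then Endo, Fibroblast, MyoFib and Mac, and last Podo. Mixing used 15 neighbours (scikit-learn 1.9.0) and needed 20 nuclei of the label in each library. Each share has a Clopper-Pearson 95% interval, which is exact and covers only counting error (scipy 1.17.1). Other work used Python 3.11.15 (numpy 2.4.6, pandas 2.3.3, matplotlib 3.10.9). The steps were tested on simulated data. All 12 labels are named, and coordinates only where they passed a threshold, here the unadjusted one. The labels, compartments and tests were chosen with earlier results of these data known, and 2 alternatives and the areas of the map were added after seeing the data.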

Additional observations from a re-analysis of the deposited data

How the results depend on the processing

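Replicate 1 is the scATAC library and replicate 2 the Multiome library, except in Amiloride, whose only library, replicate 1, is Multiome. The count of labels past the threshold within compartments, 1, was 0 with an arcsine scale, 0 with libraries weighted by counting error, 0 with the 4 libraries alone, 2 with a trended and robust variance and 2 without the kit term, that is without the replicate block that pairs the libraries. It ranged from 0 to 3 when single libraries were left out. It was 3 without Finerenone scATAC (MyoFib, PST with a log2 change of 1.41 and Endo with 1.57, adjusted p = 0.0332 each), 2 without either Control library (MyoFib and Mac) and 0 without either DOCA, either Spironolactone or the Finerenone Multiome library. The MyoFib call was lost in 9 alternatives, with adjusted p from 0.0687 to 0.301 in limma. The podocyte call, 1 compartment, became 0 with an arcsine scale and without the kit term, and ranged from 0 to 1 when single libraries were left out. The count of coordinates ranged from 0 to 4, with 4 without Finerenone scATAC (both of PST, UMAP_1 of LOH and of fibroblasts). With single libraries left out the log2 change ranged from -0.0692 to 0.453 for PCT, from -2.63 to 0.0766 for iPT and from -0.800 to 0.0451 for the distal nephron. The ends that turned sign (-0.0692, 0.0766 and 0.0451) were those without Finerenone Multiome. Ranges without a change of sign included 0.0127 to 1.12 for IC (both ends without a DOCA library), and 0.0449 to 1.57 for Endo and 0.409 to 1.41 for PST (both ends without a Finerenone library). They also included 0.504 to 1.27 for LOH and -1.31 to -0.503 for DCT. Among all nuclei the range was 0.0252 to 0.752 for the proximal tubule and -0.43 to -0.19 for the stroma. Of 247 recomputed values of single labels and compartments, 223 kept direction and side of the threshold, and the difference in iPT position, -0.01, ranged from -0.05 to 0.03 with single libraries left out. Leaving out the LOH and Endo nuclei that lay among the proximal tubule changed no call. In a fit without 1 library of a pair, the remaining library is assumed to vary like the other groups. The causes of these changes were not tested. DOCA scATAC held 5 MyoFib and 9 podocyte nuclei, which limits both calls.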

Other observations

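Some nuclei lay in the field of another label. LOH nuclei in the proximal tubule field (UMAP_2 under -2) were 0.467% (scATAC) and 0.943% (Multiome) of LOH nuclei in DOCA and 3.16% (5 nuclei) and 6.67% (72 nuclei) in Finerenone, against 12.9% and 1.91% in Control and 23.0% in the Amiloride library. Endo nuclei in the same field were 3 of 69 and 7 of 433 in DOCA and 3 of 48 and 46 of 420 in Finerenone. Without these nuclei the 4 compartments and 11 labels gave the same calls.

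The same areas were read in Spironolactone, a steroidal antagonist of the same receptor. The area of PCT beside iPT held 32.8% ± 0.167 (SD, n = 2) of PCT nuclei in Spironolactone and 35.0% ± 2.64 (SD, n = 2) in Finerenone. The left arm of LOH held 18.1% ± 2.44 (SD, n = 2) and 24.1% ± 18.7 (SD, n = 2), and the drugs differed in opposite directions in the kits, with 16.4% against 37.3% in scATAC and 19.8% against 10.9% in Multiome. The spread between the Finerenone libraries exceeded that between the Spironolactone libraries in both areas, and no test was run.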
